A study of Mus musculus with 18 samples.

Results

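The genes described here are 7 cytokine genes of group 2 innate lymphoid cells (ILC2): Il5, Il13, Il4, Il9, Il6, Il2 and Csf2. They were chosen by name, and all 7 were found among the 24781 gene entries of the count table. RNA was sequenced from ILC2 sorted from lung and bone marrow of mice without CD45 and of control mice. Ptprc encodes CD45, a transmembrane phosphatase of blood cells that controls kinases of the Src family. By genotype, the labels give CD45 KO x Rag2 KO for the first (called CD45 KO below) and Rag2 KO for the second (called control), so every mouse lacked Rag2, which is needed to make T and B cells, and no Rag2-sufficient mouse was included. The 6 groups of 3 libraries were lung CD45 KO, lung control, mature marrow CD45 KO, mature marrow control, immature marrow CD45 KO and immature marrow control, where the immature cells are labelled ILC2P. The labels give no age or sex, and do not say whether the libraries of a group came from different mice. The p-values therefore measure the spread between these libraries, taken in part or wholly over other genes, and this spread may be technical.

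ILC2 lack antigen receptors and are switched on by epithelial signals such as interleukin 33 (IL-33), IL-25 and TSLP. They are known as an early source of type 2 cytokines, above all IL-5, which sustains eosinophils, and IL-13, which acts on epithelium and smooth muscle. Both genes share a cluster with Il4 and, farther away, Csf2, and their mRNAs are made on activation and quickly broken down. GATA3 is needed for type 2 cytokine expression in ILC2, NFAT and AP-1 factors drive these genes in activated lymphocytes, and AU-rich elements in the 3′ UTR (untranslated region) of cytokine mRNAs recruit decay factors.

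The library totals were 68077 to 122250 counts, with 7189 to 8793 genes detected. Levels below are CPM, that is counts scaled to a common library size after TMM correction. A count of 0 in 1 library allows a level of up to 25.3 to 44.7 CPM (3 counts), depending on the library, and for counting error only. Ptprc checked the labels: it was at 153, 112 and 229 CPM in lung CD45 KO libraries, against 628, 546 and 563 CPM in lung controls. In marrow it was also lower in CD45 KO, but replicate 1 of the libraries labelled mature CD45 KO was at 238 CPM, against 253 to 541 CPM in mature controls. That library also stood apart from the rest of its group, with a chi-square per degree of freedom of 2.55 and 2.74 against them and 1.07 to 1.67 in all other pairs of replicates. Mature control replicate 1 held 170 counts of neutrophil markers (2533 CPM, 5 of 8 genes), against 12 and 9 counts in the rest of its group and 0 to 8 in all other libraries. Without it Il4 and Csf2 still did not pass between the mature genotypes, and the Il4 call between lung and mature control below stayed (adjusted p = 0.000516). The ILC2 marker list (11 genes, Gata3 among them) summed to 10444 to 12013 CPM in lung CD45 KO, 10215 to 10824 CPM in lung control and 6585 to 8849 CPM in marrow libraries. Xist, which is expressed from the inactive X of female cells, had 52 to 105 counts in the 6 lung libraries and 0 in the 12 marrow libraries. The summed counts of 4 Y-linked genes were 0 in the 6 lung libraries and 10 to 32 in the marrow libraries, so that lung against marrow and female against male cannot be told apart here.

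All 4 genes of the chromosome 11 group are protein coding and lie within 631 kb of each other. In mm10 with GENCODE M21, Il4 spans chr11:53602982-53618669 and Il13 chr11:53631324-53634702, both on the minus strand, with start sites 16.03 kb apart. Il5 spans chr11:53720794-53725106 on the plus strand, with its start 86.1 kb from that of Il13 and 102 kb from that of Il4. Csf2 spans chr11:54247271-54249667 on the minus strand, 529 kb from the Il5 start. The other genes lie on chromosome 3 (Il2, chr3:37120523-37125959), chromosome 5 (Il6, chr5:30013114-30019981) and chromosome 13 (Il9, chr13:56479277-56482246). Il5 and Csf2 overlap predicted genes (Gm12214 and Gm12223) that are no entries of the table, and Il2 overlaps Adad1, which had 0 counts. The sources used here do not say whether strand was used in counting.

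The promoters of the genes whose lung levels the results turn on are printed so that the letters beside each start site can be read against the values. Each is the RefSeq window (GRCm38.p6) of 300 bases, 250 before the start and 50 from it, written 5′ to 3′ on the strand of the gene. Capitals mark GATAA and GATAG (GATA factor cores), GGAAA (NFAT core) and TGANTCA (AP-1) on either strand, so that a match on the opposite strand shows in capitals as its reverse complement. No 2 matches overlap in these windows.
Il4, chr11:53618616-53618915, minus strand: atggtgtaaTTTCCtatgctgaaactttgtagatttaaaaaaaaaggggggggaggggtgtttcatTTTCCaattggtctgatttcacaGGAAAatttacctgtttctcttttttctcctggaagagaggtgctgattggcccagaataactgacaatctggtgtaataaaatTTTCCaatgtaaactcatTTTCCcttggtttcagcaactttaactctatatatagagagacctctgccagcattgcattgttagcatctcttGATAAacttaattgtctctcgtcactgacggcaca
Il13, chr11:53634653-53634952, minus strand: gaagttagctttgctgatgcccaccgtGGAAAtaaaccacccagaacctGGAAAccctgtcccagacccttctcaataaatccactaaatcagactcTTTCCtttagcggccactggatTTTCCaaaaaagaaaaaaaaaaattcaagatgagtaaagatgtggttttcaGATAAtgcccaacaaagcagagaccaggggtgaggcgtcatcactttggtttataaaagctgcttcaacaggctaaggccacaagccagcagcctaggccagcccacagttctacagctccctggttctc
Il5, chr11:53720544-53720843, plus strand: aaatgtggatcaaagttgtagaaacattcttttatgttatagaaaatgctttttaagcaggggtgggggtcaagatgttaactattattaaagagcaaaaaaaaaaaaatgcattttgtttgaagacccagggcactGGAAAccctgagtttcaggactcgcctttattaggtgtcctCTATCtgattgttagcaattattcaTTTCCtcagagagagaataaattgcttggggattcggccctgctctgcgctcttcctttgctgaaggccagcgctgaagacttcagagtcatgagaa
Csf2, chr11:54249850-54250149, minus strand: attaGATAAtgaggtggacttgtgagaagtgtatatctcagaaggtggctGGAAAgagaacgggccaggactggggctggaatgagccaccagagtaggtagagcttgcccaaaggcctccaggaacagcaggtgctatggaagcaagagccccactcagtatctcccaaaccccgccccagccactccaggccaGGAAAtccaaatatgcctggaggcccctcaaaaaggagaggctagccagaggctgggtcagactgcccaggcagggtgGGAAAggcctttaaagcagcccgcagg
Il2, chr3:37125905-37126204, minus strand: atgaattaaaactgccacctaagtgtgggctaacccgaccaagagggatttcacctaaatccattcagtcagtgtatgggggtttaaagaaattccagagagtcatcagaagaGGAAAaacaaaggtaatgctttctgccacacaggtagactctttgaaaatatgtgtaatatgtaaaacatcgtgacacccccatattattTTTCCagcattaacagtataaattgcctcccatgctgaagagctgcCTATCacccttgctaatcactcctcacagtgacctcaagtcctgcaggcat

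Each of these 5 windows held a GATA core, GATAA in Il4, Il13 and Csf2 and GATAG in Il5 and Il2, letters that 25.4% and 23.5% of 32851 mouse promoter windows also held. The share of windows with either core was not counted, so the 5 cannot be set against it. Of the windows not printed, that of Il6 held GATAA and that of Il9 held neither core. The NFAT core GGAAA matched 5 times in Il4, 4 times in Il13, 3 times in Csf2 and 2 times each in Il5 and Il2, and 61.3% of all promoter windows held at least 1 match. TGANTCA, in 7.81% of all windows, was in 0 of the 5, and in 1 place each in the windows of Il6 and Il9, which are not printed. RefSeq places the Csf2 start 232 bases upstream of the GENCODE start, so this window covers the upstream start only. A second RefSeq start of Il4 was not used here, since the one printed lies 4 bases from the GENCODE start. The Il4 window was chosen after its values were seen.

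The 3′ UTRs were searched for ATTTA, the core of AU-rich elements. The longest annotated 3′ UTR of Csf2 had 9 in 317 bases, a density reached by 0.0809% of 21020 genes with a 3′ UTR. Il2 had 7 in 581 bases (0.695% of genes) and Il9 had 3 in 86 (0.0476%). Il5 had 7 in 1092 bases (4.03%), Il6 had 10 in 1668 (4.75%) and Il13 had 3 in 741 (12.2%). Of all genes 65.2% held any copy and the median was 1. The windows of 30 bases with the most copies are printed for 2 of them (GRCm38, strand of the gene, ATTTA in capitals), to show how closely the copies follow each other.
Csf2: tttttaaatATTTATTTATTTATTTATTTA
Il2: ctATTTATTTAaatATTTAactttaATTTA

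The loss of CD45 in lung ILC2 went with higher levels of 3 of these cytokine genes, Il4, Il5 and Il13, in the fits described below. Of the 7 genes, 4 (Il5, Il13, Csf2 and Il2) had enough counts for the filter on low counts, and 2 of these, Il5 and Il13, passed the test at an adjusted p of 0.05, both higher. Over all 1916 genes tested, 2.51% passed in either direction and 2.04% were higher. Il13 met the filter through the lung CD45 KO libraries, where it was high, so its place among the tested genes is a description and not evidence. With only the control libraries of lung and mature marrow fitted, 3 of these 4 genes met the filter, and Il13 did not. Without the filter all 7 could be tested, and Il4 passed besides Il5 and Il13, where 0.17% of 12945 genes passed and 0.147% were higher. Fewer cells making a cytokine and less RNA per cell cannot be told apart in such pooled cells.

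Il4, which encodes the cytokine of Th2 differentiation and IgE class switching, was counted 5, 12 and 3 times in the lung CD45 KO libraries, against 0, 0 and 0 times in the lung controls. In CPM the CD45 KO libraries were at 69.5, 112 and 40.5, and the 0 counts of the 3 controls together allow a level of up to 10.1 CPM. Il4 was therefore present in each CD45 KO lung library and not detected in any lung control. The pooled level was at least 7.84-fold higher in CD45 KO, taken against 3 counts over the control group. In the fit without a filter the adjusted p was 0.00037, and it stayed below the threshold with each lung library left out (highest adjusted p = 0.0484, without CD45 KO replicate 2). With the DESeq2 Wald test without independent filtering it was 0.0273. The edgeR fit without a filter took the spread as shared over genes, so that of the Il4 libraries themselves had no weight in its p.

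Among all genes, 36 had 0 counts in the 3 lung controls and a count in each lung CD45 KO library, and 1 of them, Il4, reached 20 counts. In the other direction 81 genes had 0 counts in the CD45 KO libraries and a count in each control, and 0 of them reached 20, a number set after seeing the counts of Il4. With 3 libraries a group, an exact permutation test of a single gene cannot give less than p = 0.1.

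Il5, the eosinophil growth and survival factor, was at 765, 1321 and 998 CPM (55, 142 and 74 counts) in lung CD45 KO libraries, against 573, 706 and 475 CPM (52, 66 and 54 counts) in lung controls. The groups did not overlap, and CD45 KO replicate 2 was the highest. Il5 was higher by 0.86 ± 0.19 on the log2 scale (SE, 95% interval 0.45 to 1.26, adjusted p = 0.00191). Without CD45 KO replicate 2 the difference was 0.61 and did not pass (adjusted p = 0.132), and it did not pass with the DESeq2 Wald test without independent filtering (0.86, adjusted p = 0.102).

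Il13, which encodes the mucus and smooth muscle cytokine of type 2 inflammation, was at 236, 242 and 351 CPM (17, 26 and 26 counts) in lung CD45 KO libraries, against 88.2, 193 and 35.2 CPM (8, 18 and 4 counts) in lung controls. These groups did not overlap either, and the controls spread more than the CD45 KO libraries. The log2 difference was 1.42 ± 0.40 (95% interval 0.55 to 2.29, adjusted p = 0.0346). It did not pass when control replicate 1 (adjusted p = 0.114), control replicate 3 (0.347), CD45 KO replicate 2 (0.0797) or CD45 KO replicate 3 (0.188) was left out, with differences of 0.96 to 1.52, and the difference was 2.21 without control replicate 2. With the DESeq2 Wald test without independent filtering it did not pass (adjusted p = 0.274).

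Csf2 encodes GM-CSF, the growth factor of granulocytes and macrophages. It was at 1126, 1247 and 1241 CPM (81, 134 and 92 counts) in lung CD45 KO libraries, against 915, 973 and 906 CPM (83, 91 and 103 counts) in lung controls. The lowest CD45 KO library lay above the highest control, yet the difference of 0.38 ± 0.15 on the log2 scale did not pass (95% interval 0.05 to 0.70, adjusted p = 0.177). Groups did not overlap, with CD45 KO higher, for 3 of the 4 tested cytokine genes (among them Il13, which met the filter through that group) and for 12.3% of the 1916 tested genes. Among genes with any count this held for 4 of the 7 and for 4.22% of 12945.

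Il2 encodes the growth factor of lymphocytes, and ILC2 carry its high-affinity receptor. It was at 264, 167 and 121 CPM (19, 18 and 9 counts) in lung CD45 KO libraries, against 176, 257 and 185 CPM (16, 24 and 21 counts) in lung controls. The groups overlapped and the difference of -0.17 ± 0.36 did not pass (95% interval -0.95 to 0.61). Its sign turned without control replicate 2 (0.03) or CD45 KO replicate 3 (0.05).

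Il6, a pleiotropic inflammatory cytokine gene, had 1, 3 and 0 counts in lung CD45 KO libraries, against 0, 1 and 0 counts in lung controls. Il9, whose product acts on mast cells and ILC2 themselves, had 1 count in the whole table, in lung CD45 KO replicate 3. Neither allows a comparison at this depth. The 7 genes together held 2475, 3117 and 2766 CPM in lung CD45 KO libraries, against 1752, 2139 and 1600 CPM in lung controls.

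**Figure D1:**
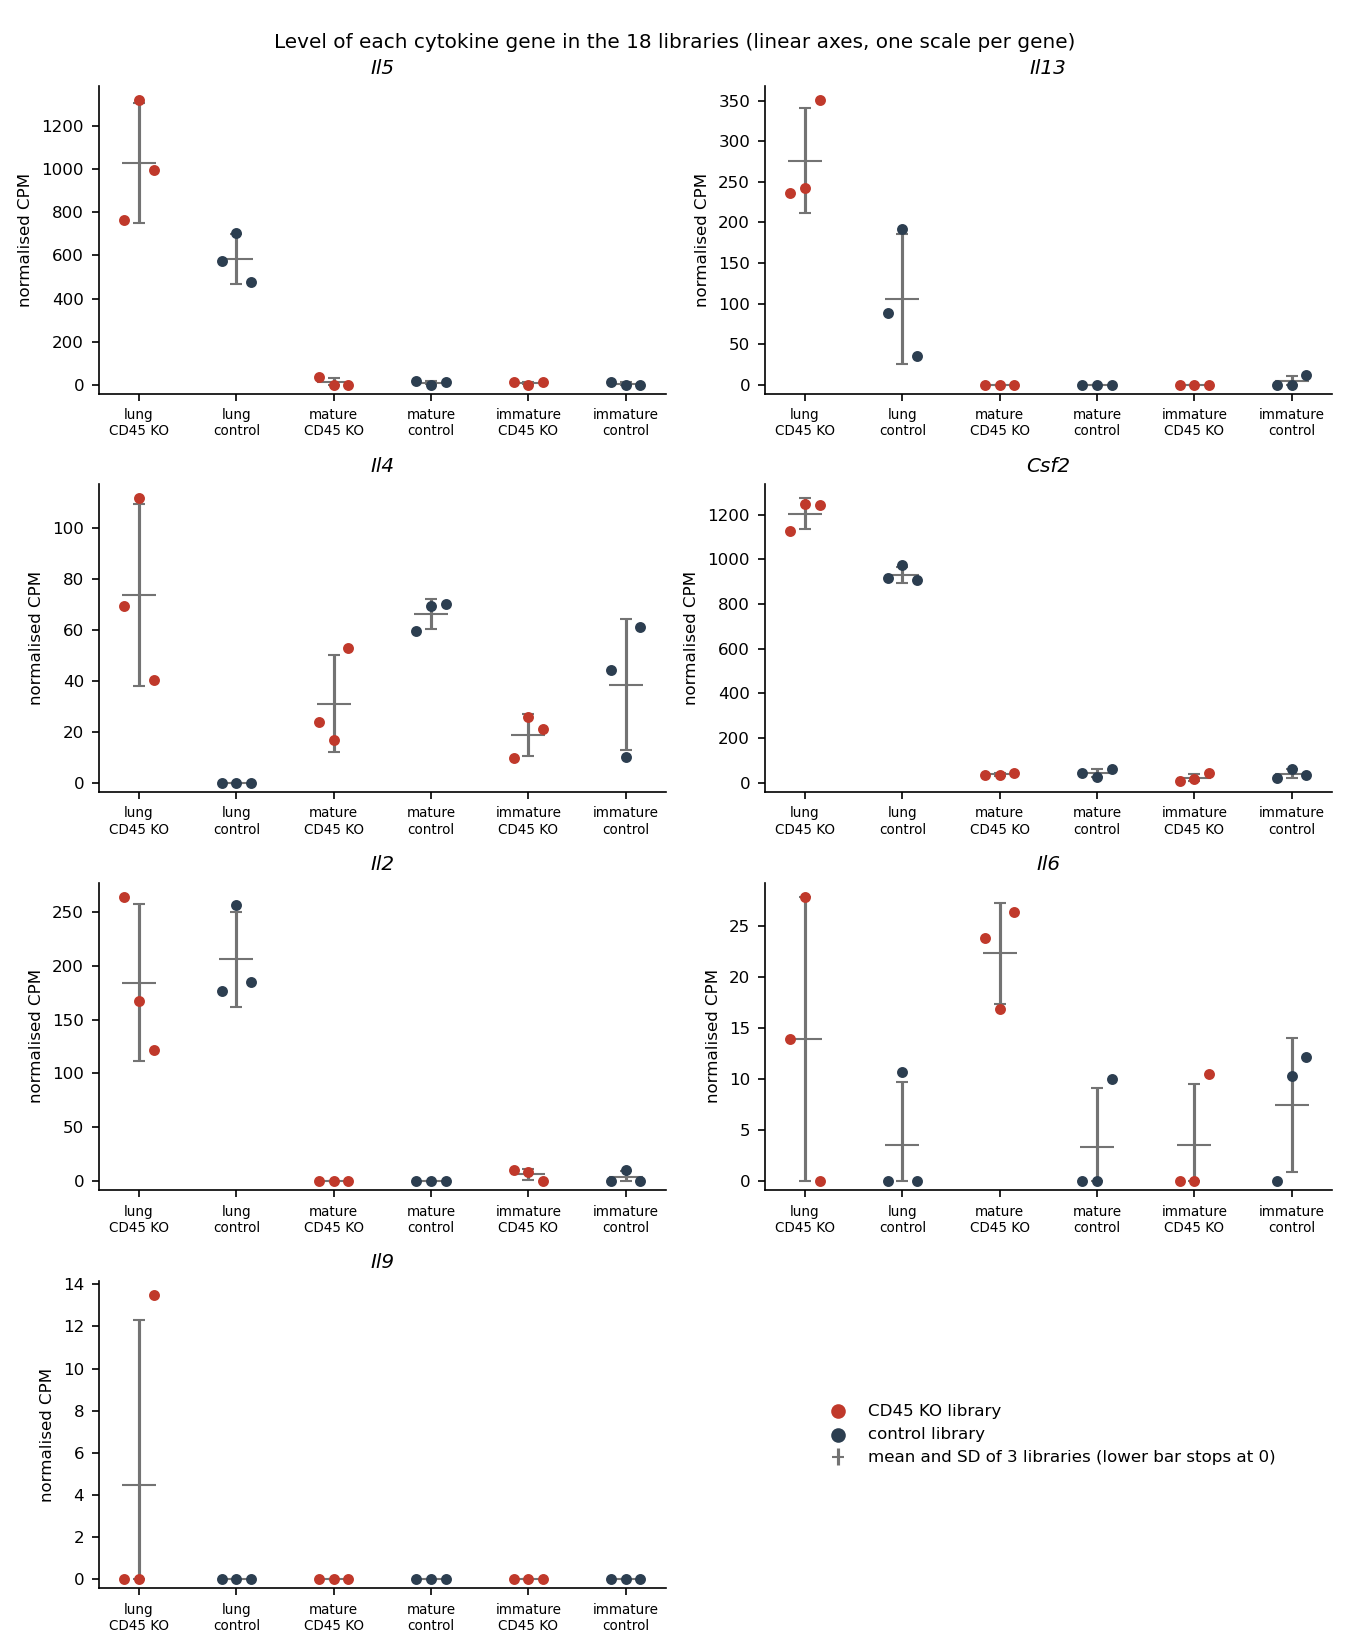
Level in normalised CPM (y axis, linear, one scale per gene) of each of the 7 genes in the 18 libraries, grouped along the x axis by population and genotype; points are libraries, the wide tick is the mean and the bar the SD of 3 libraries. Il4 is at 0 in each lung control and at 40.5 to 112 CPM in lung CD45 KO, while Il5, Il13, Il2 and Csf2 are high in both lung groups only.

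Values that moved with the lung genotypes stand beside these results. Immediate-early and dissociation genes (28 in the list), which tissue digestion and cell activation both induce, summed to 20833 to 22510 CPM in lung CD45 KO, 14237 to 15982 CPM in lung control and 1311 to 1636 CPM in marrow libraries, and their part in the results was not tested. Lung CD45 KO replicate 1 alone among the lung libraries held counts of eosinophil markers (12 counts over 3 of 7 genes) and of macrophage or monocyte markers (20 counts over 5 of 8 genes), and both lists were at 0 in the other 5. Without that library Il4 (adjusted p = 0.000441), Il5 and Il13 kept their calls. Of the 11 mast cell or basophil markers, other known sources of Il4, 8 (Mcpt8, Mcpt4, Cma1, Tpsb2, Tpsab1, Fcer1a, Ms4a2 and Gata2) had 0 counts in all 18 libraries. The list summed to 0 to 27.9 CPM in lung CD45 KO and 44.0 to 53.5 CPM in lung control, mostly from Cpa3 (3 and 13 counts). Of 6 T cell markers, Cd4 and Cd8a were at 0 in all libraries, and the list summed to 13.9 to 46.5 CPM in lung CD45 KO and 42.8 to 52.8 CPM in lung control, with Cd3g at 9 and 12 counts.

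**Figure D2:**
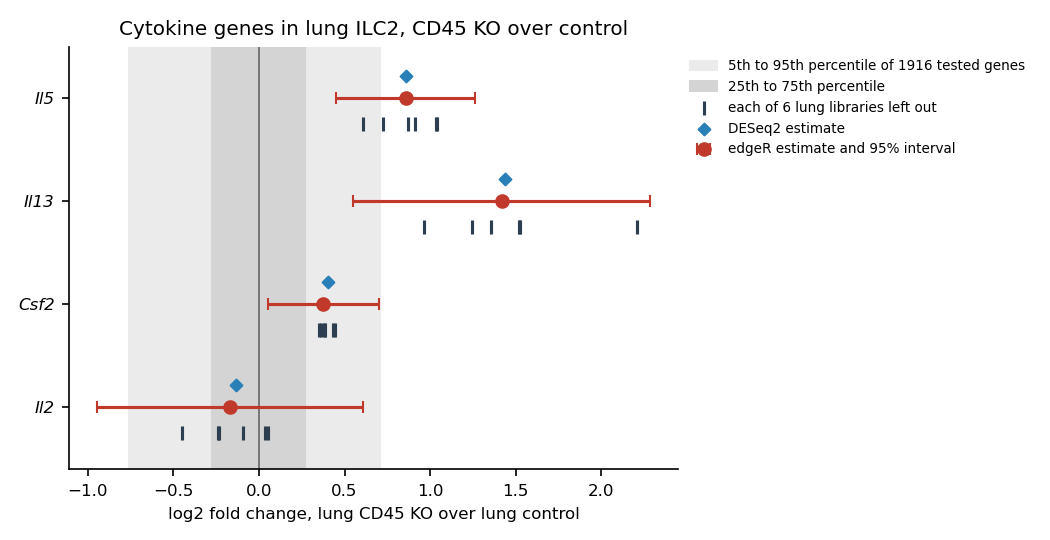
Log2 fold change of lung CD45 KO over lung control (x axis) for the 4 tested cytokine genes (y axis): red points and bars are the edgeR estimate and its 95% interval, blue diamonds the DESeq2 estimate, dark ticks the estimate with each of the 6 lung libraries left out, and grey bands the spread of all 1916 tested genes. Il5 (0.86) and Il13 (1.42) lie beyond the band of the 5th to 95th percentile, Csf2 (0.38) and Il2 (-0.17) within it.

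In marrow ILC2, Il4 and Csf2 had enough counts to set the CD45 genotypes side by side, and neither passed the test in mature or in immature cells. Il5, Il13 and Il2 entered the test through the lung libraries and had 0 to 3 counts in each marrow group, so that their tests could not pass and say nothing. Over all tested genes 0.261% passed in mature and 1.67% in immature cells. Without the library labelled CD45 KO replicate 1, Il4 and Csf2 did not pass in mature cells either.

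Il4 was detected in each of the 12 marrow libraries. In mature cells it had 2, 2 and 6 counts in CD45 KO libraries (23.8, 16.8 and 52.8 CPM), against 4, 5 and 7 counts in controls (59.6, 69.4 and 70.2 CPM). The CD45 KO libraries lay below the controls, as for 4.36% of the 12945 genes with a count, with a ratio of pooled levels of 0.472 (95% interval 0.191 to 1.11, counting error only), and the fit without a filter gave an adjusted p of 0.952. In immature cells it had 1, 3 and 2 counts in CD45 KO libraries, against 4, 1 and 5 counts in controls, a ratio of 0.517 (0.154 to 1.57) with an adjusted p of 0.903.

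Il6 had 2, 2 and 3 counts in mature CD45 KO libraries (23.8, 16.8 and 26.4 CPM), against 0, 0 and 1 count in mature controls (10.03 CPM in the last). The CD45 KO libraries lay above the controls, as for 3.62% of the 12945 genes with a count, but the ratio of pooled levels, 5.29, had an interval of 0.679 to 238 and the adjusted p without a filter was 0.952. Csf2 had 3, 4 and 5 counts in mature CD45 KO libraries, against 3, 2 and 6 in mature controls, and 1, 2 and 4 counts in immature CD45 KO libraries, against 2, 6 and 3 in immature controls. Its log2 differences were -0.27 ± 0.55 in mature and -0.83 ± 0.62 in immature cells, with intervals that reach from -1.48 to 0.94 and from -2.18 to 0.52. No fold was formed for Il5, Il13 and Il2, nor for Il9, which had 0 counts in all marrow groups.

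The difference between the CD45 effects in lung and in marrow was tested as a contrast in the same fit. For Il5, Il13 and Il2 it could not be assessed, since their marrow groups held 0 to 3 counts. Csf2 differed by 0.65 ± 0.58 against mature marrow (adjusted p = 0.817) and by 1.20 ± 0.64 against immature marrow (adjusted p = 0.486), and neither passed, as against 0.313% and 0.365% of tested genes that did. Without a filter Il4 passed in both, with an adjusted p of 0.00225 against mature and 0.0157 against immature marrow, where 0.0309% and 0.0618% of 12945 genes passed. Its fitted difference rests on a group at 0 counts and is not given. The Il4 call against mature marrow was lost without lung CD45 KO replicate 2 (adjusted p = 0.0617) and with the DESeq2 Wald test (0.116). Against immature marrow it was lost in 7 of 12 fits that each left out 1 library (highest adjusted p = 0.153, without immature control replicate 3) and with the DESeq2 Wald test without independent filtering (0.177). Sex differs between lung and marrow libraries, as given above, and its part in this difference cannot be told apart from that of the tissue.

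Lung ILC2 held far more Il5, Il13, Csf2 and Il2 than marrow ILC2, in both genotypes. These 4 genes passed the filter on low counts only through the lung libraries, so their number among the genes that passed is a description and not evidence. Each was higher in lung in all 4 comparisons of lung with marrow (highest adjusted p = 7.35e-05, Il13 in lung against immature marrow of controls), where in CD45 KO cells 14.8% (mature) and 15.7% (immature) of tested genes were higher, and in controls 15% and 14.6%.

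Il5 averaged 1028 ± 279 CPM in lung CD45 KO and 11.9 ± 20.6 CPM in mature marrow CD45 KO (SD, n = 3 each), a pooled ratio of 113 (95% interval 38.2 to 550). All 3 of these marrow counts were in replicate 1, the library that stood apart, and without it lung was at least 82.8-fold higher, while without mature CD45 KO replicate 2 or 3 the ratio was 70.4 or 72.2. Between controls it averaged 585 ± 116 CPM in lung and 8.31 ± 7.60 CPM in mature marrow, a ratio of 69.0 (18.8 to 574). Csf2 averaged 1205 ± 68.0 CPM in lung CD45 KO and 37.8 ± 5.45 CPM in mature marrow CD45 KO, a ratio of 31.9 (18.01 to 62.5), and in controls 931 ± 36.7 CPM in lung and 44.2 ± 16.2 CPM in mature marrow, a ratio of 20.2 (11.1 to 40.9). Over immature marrow, the ratios in CD45 KO were 167 for Il5 (45.8 to 1385) and 54.0 for Csf2 (25.9 to 135), and in controls 155 for Il5 (27.5 to 6172) and 22.7 for Csf2 (12.5 to 46.1). The Il5 ratio between controls rests on 1 count, in immature replicate 1, without which lung was at least 34.4-fold higher, and it was 99.5 without immature replicate 2. In CD45 KO the Il5 ratio was 105.1 without immature replicate 2, and that of Csf2 was 87.6 without immature replicate 3. Csf2 was the only 1 of these 4 genes with a count in each of the 12 marrow libraries.

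Il13 had 69 counts over the 3 lung CD45 KO libraries and 0 in mature and immature marrow CD45 KO, so that lung was at least 28.7-fold and at least 28.3-fold higher. In controls it had 30 counts in lung, 0 in mature marrow (lung at least 8.02-fold higher) and 1 in immature marrow, a ratio of 27.1 (4.50 to 1106). Without that 1 count, in immature control replicate 3, lung was at least 6.28-fold higher, and the ratio was 15.8 to 17.99 without lung control replicate 2 or immature control replicate 1 or 2. Il2 had 46 counts in lung CD45 KO, against 0 in mature (at least 19.1-fold higher in lung) and 2 in immature marrow CD45 KO, a ratio of 28.3 (7.41 to 241). In controls it had 61 counts in lung, against 0 in mature (at least 16.3-fold higher in lung) and 1 in immature marrow, a ratio of 55.1 (9.52 to 2212). Without that 1 count, in immature control replicate 2, lung was at least 11.8-fold higher, and the ratio was 36.6 without immature control replicate 1. The sizes of these lower bounds follow the 3 counts set against 0 and move either way when a library is left out. For Il13 over mature control the bound was 4.67-fold without lung control replicate 2 or mature control replicate 3. It was 11.2-fold without lung control replicate 3. The immediate-early sums given above are also higher in lung than in marrow, and their part in these differences was not tested.

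Il4 followed another order. Ranked by mean level, it was at 73.9 ± 35.8 CPM in lung CD45 KO, 66.4 ± 5.89 in mature control, 38.5 ± 25.8 in immature control, 31.2 ± 19.1 in mature CD45 KO, 18.9 ± 8.25 in immature CD45 KO and 0 in lung control. Each neighbour in this order overlapped with the next, except that immature CD45 KO (9.86 to 26.0 CPM) lay above lung control. Between controls Il4 was at least 6.65-fold lower in lung than in mature marrow (16 counts, adjusted p = 0.000254 without a filter) and at least 3.69-fold lower than in immature marrow (10 counts, adjusted p = 0.0146). The second call was lost in 5 of 6 fits that each left out 1 library (highest adjusted p = 0.113). In these comparisons 3.7% and 3.73% of 12945 genes passed.

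In CD45 KO cells Il4 was higher in lung than in marrow, by a pooled ratio of 2.50 over mature marrow (95% interval 1.11 to 5.97, adjusted p = 0.298) and of 4.11 over immature marrow (1.59 to 12.5, adjusted p = 0.0443). The first did not pass, and the second lost its call in 5 of 6 fits that each left out 1 library (highest adjusted p = 0.527, without lung CD45 KO replicate 2). Of 12945 genes 4.08% and 3.99% passed here.

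Between mature and immature marrow ILC2, again Il4 and Csf2 had enough counts to be compared in both genotypes, and no difference was detectable at this depth. Neither passed, while 0.678% (CD45 KO) and 0.0522% (control) of all tested genes did. Il4 had a pooled ratio of mature over immature of 1.65 (0.542 to 5.51) in CD45 KO and 1.80 (0.769 to 4.44) in control cells. Csf2 had a ratio of 1.69 (0.614 to 5.07) in CD45 KO and 1.13 (0.443 to 2.87) in control cells. Il6 had 7 counts in mature and 1 in immature CD45 KO cells, a ratio of 6.91 (0.888 to 311). Its adjusted p in the fit without a filter was 0.958.

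The genes around the chromosome 11 cytokines were followed as neighbours. Rad50, the DNA repair gene between Il13 and Il5 whose introns hold the locus control region of the type 2 cytokines, had 104.8 ± 73.2 CPM in lung CD45 KO and 75.3 ± 38.4 CPM in lung control. Of the 14 listed neighbours 12 were in the table and 3 (Rad50, Irf1 and Aff4) were tested, and 0 passed between lung CD45 KO and control. Il3, which lies between Csf2 and Acsl6 and encodes another myeloid growth factor, had 2 counts in lung CD45 KO and 1 in lung control.

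**Figure D3:**
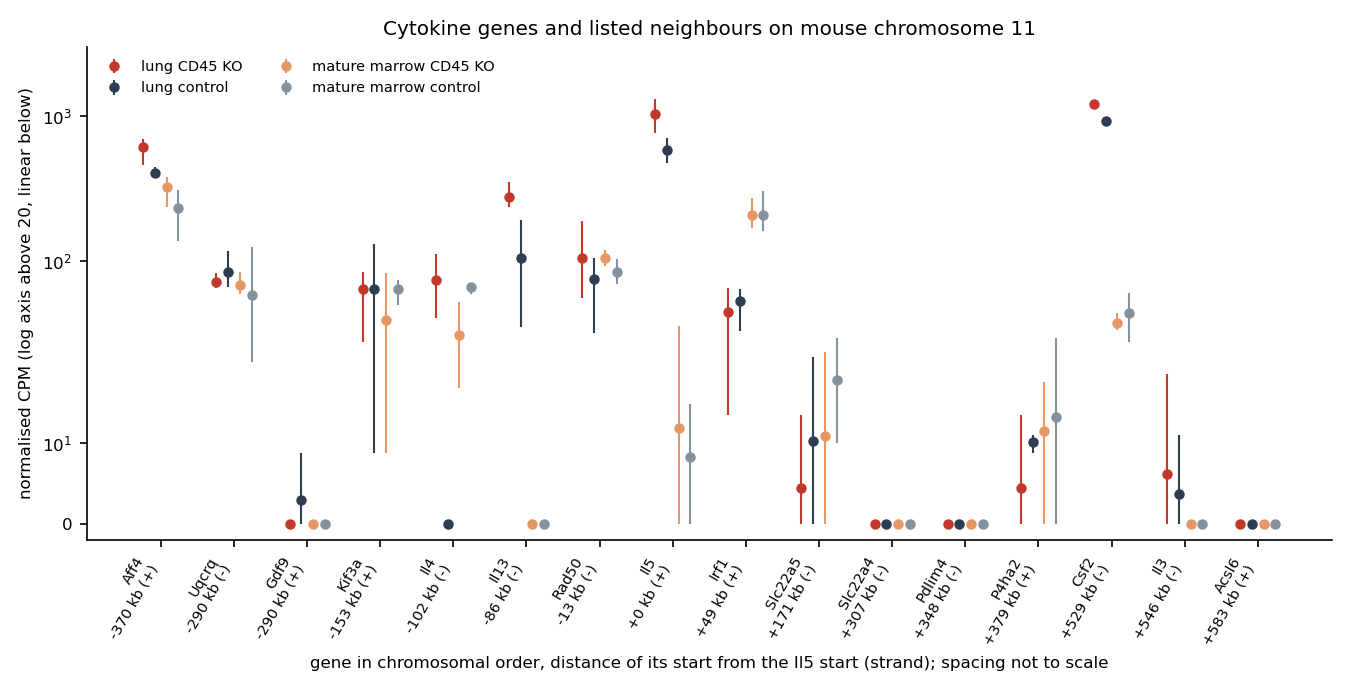
Level in normalised CPM (y axis, logarithmic above 20 and linear below) of the chromosome 11 cytokine genes and their listed neighbours in chromosomal order (x axis, distance of each start site from that of Il5); points are means and bars the range of 3 libraries, and heights of different genes are not comparable. Il4 stands at 0 in lung control beside 69.5, 112 and 40.5 CPM in the lung CD45 KO libraries, while Kif3a and Rad50, on either side of Il4 and Il13, overlap between the lung genotypes.

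Receptors, transcription factors and other genes of the same pathways were counted in lists chosen with earlier results of these data known. Between lung CD45 KO and control, 0 of the 4 tested receptor genes of these cytokines passed (13 listed, median log2 difference 0.72, against 0.01 over all tested genes). Of these, Il2rb met the filter on low counts only with the lung CD45 KO libraries (232 ± 106 CPM, against 119 ± 27.6 CPM in lung control). The median of these 4 genes is therefore a description and not evidence. Il4ra, which encodes the subunit shared by the IL-4 and IL-13 receptors, was chosen after its values were seen. It was at 259 ± 50.4 CPM in lung CD45 KO and 137 ± 7.98 CPM in lung control (0.93 ± 0.31, adjusted p = 0.0984). Il5ra had 0 counts in both lung groups.

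Of 7 tested receptors that activate ILC2, 1 passed in lung, the costimulatory receptor gene Icos (0.56 ± 0.15, adjusted p = 0.027), with a list median of 0.06. It did not pass when control replicate 1, control replicate 2, CD45 KO replicate 1 or CD45 KO replicate 2 was left out (adjusted p of up to 0.123). Of 14 tested transcription factors that act on type 2 cytokine genes, 2 were higher and 1 lower in lung CD45 KO. Over all tested genes 2.51% passed in either direction. Jund, an AP-1 subunit, was higher by 0.69 ± 0.15 (adjusted p = 0.00149), and so was Nfkb1, which encodes an NF-kB subunit, by 0.65 ± 0.17 (adjusted p = 0.0189). Maf, which in T helper cells drives Il4, was lower, at 132 ± 14.9 CPM in CD45 KO and 263 ± 68.1 CPM in control (-0.99 ± 0.29, adjusted p = 0.0467). Nfkb1 missed the threshold when 1 of control replicates 1 and 3 or CD45 KO replicate 2 was left out (adjusted p of up to 0.0990), and Maf passed in 1 of 6 such fits (up to 0.368, without control replicate 3). The median of the 14 was 0.12.

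Immediate-early genes showed the most calls of the 7 lists in lung, 6 higher and 0 lower of 20 tested, with a median of 0.48. This list also had the most tested genes, and 2.04% of all tested genes were higher in lung CD45 KO. Egr1, at 612 ± 136 CPM in CD45 KO and 127 ± 18.6 CPM in control, differed most (2.24 ± 0.28, adjusted p = 8.81e-09). Nr4a3 (1.11 ± 0.17), Fosb (0.73 ± 0.13), Jund (also in the list of transcription factors), Nfkbiz (0.64 ± 0.14) and Nr4a1 (0.46 ± 0.13) were higher in CD45 KO as well (highest adjusted p = 0.0302). Egr1, Nr4a3, Fosb, Nfkbiz and Nr4a1 belong to the early transcriptional response of cells to stimulation. Nr4a1 did not pass when control replicate 2, CD45 KO replicate 2 or CD45 KO replicate 3 was left out (adjusted p of up to 0.279). Other cytokines (5 tested), factors of mRNA decay and stability (7 tested) and neighbours (3 tested) had 0 calls in lung, with medians of 0.36, 0.06 and 0.36.

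**Figure D4:**
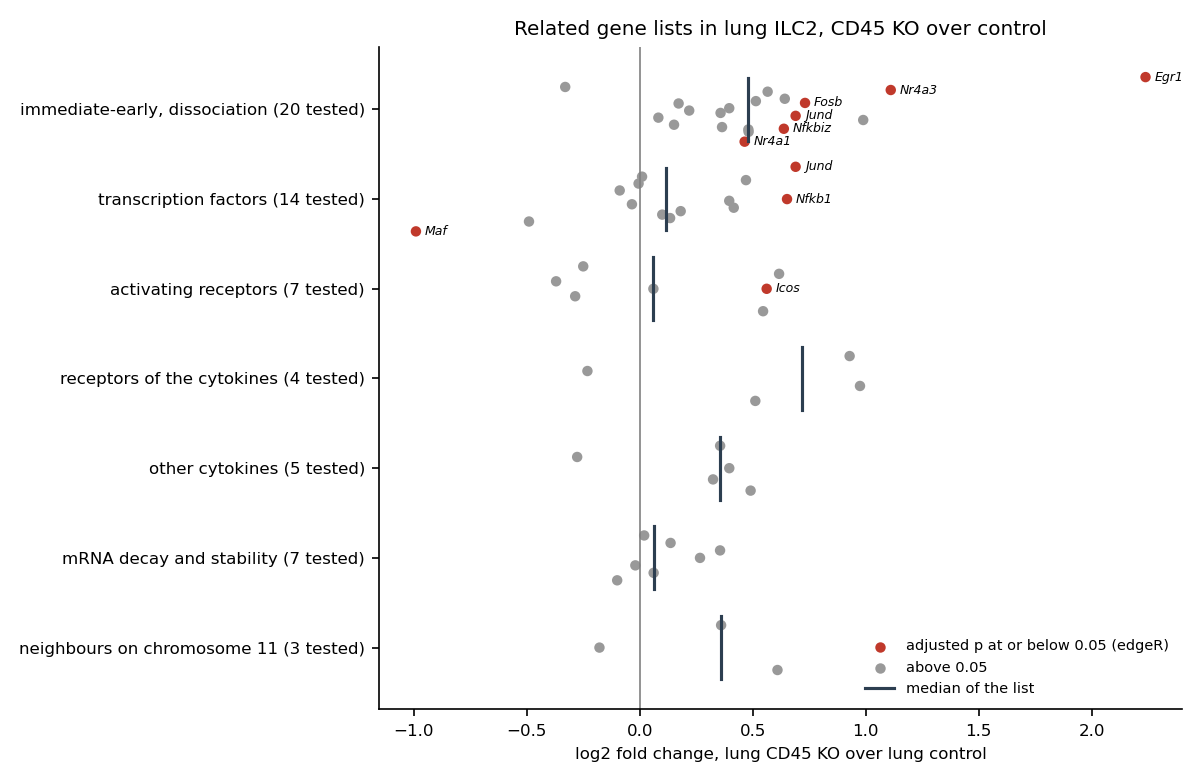
Log2 fold change of lung CD45 KO over lung control (x axis) of each tested gene in 7 lists of related genes (y axis); each point is a gene, red where the adjusted p passed, with the list median as a dark line. Immediate-early genes hold 6 of the red points, all to the right of 0, and Maf (-0.99) is the one red point to the left.

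In immature marrow the same lists had 3 calls, all lower in CD45 KO. Over all tested genes 1.67% passed there, 21 higher and 11 lower. Il1rl1, which encodes the IL-33 receptor, fell to 917 ± 108 CPM in CD45 KO, against 1502 ± 45.3 CPM in control (-0.71 ± 0.15, adjusted p = 0.00298). Rora, which encodes a transcription factor that ILC2 need to develop (-0.82 ± 0.23, adjusted p = 0.0408), and Zfp36l2, which encodes a factor that binds AU-rich elements and speeds mRNA decay (-0.81 ± 0.19, adjusted p = 0.00896), were the others. Leaving out any 1 of the 3 controls or CD45 KO replicate 3 ended the call of Rora (adjusted p of up to 0.309), and leaving out control replicate 1 or control replicate 2 ended that of Zfp36l2 (up to 0.1001). In mature marrow the 7 lists had 0 calls. In lung against mature marrow of controls, 18 of the 20 tested immediate-early genes were higher and 1 lower, with a median of 4.37. Of the 14 transcription factors 7 were higher and 0 lower, with a median of 0.60. Over all tested genes the median was -0.03 and 15% were higher. List genes could meet the filter on low counts through the lung libraries, as Fosl2 did (837 CPM in lung control, 14.9 in mature control). The numbers and medians of these lists in lung against marrow are therefore a description and not evidence.

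The tested genes whose log2 CPM followed each cytokine most closely over the 18 libraries are given as a description, since all of them share the contrast of lung with marrow. For Il5 they were Nr4a2, Plk3 and Ccl1 (Pearson r of 0.99 each), and for Il13 Ptgs2 (0.97), Nr4a2 and Nr4a3 (0.96 each). For Csf2 they were Junb, Fosb and Cxcl2 (0.99 each), and for Il2 Cxcl2, Xist and Maff (0.98 each). After each group mean was subtracted, the closest genes were Snrnp70 for Il5 (0.75), Ptgs2 for Il13 (0.91), Mbd2 for Csf2 (0.79) and Asxl2 for Il2 (0.75), over the same 18 libraries. Among the cytokines themselves the correlations after subtraction lay between -0.19 (Il5 with Il2) and 0.17 (Il5 with Il13).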

How the data were processed

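Per the labels' protocols, ILC2 were sorted at 200 cells a sample (100 a tube in another passage), and barcoded oligo-dT cDNA was made from the lysate and amplified by PCR. The submitters' processing notes name STAR and mm10. Counter, annotation, strand and any collapsing of reads by barcode: not given in the sources used here. What the authors deposited is a table of raw counts, whole numbers, for gene symbols in 18 libraries.

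TMM factors set the library sizes, and filterByExpr (by group, minimum count 10) left 1916 genes. The model of 6 group means was fitted to all 18 libraries in edgeR 4.0.16 (R 4.3.3), comparisons were tested with its quasi-likelihood test, and p-values were adjusted by Benjamini-Hochberg over all genes tested (threshold 0.05). SE is the absolute log2 difference divided by the square root of F. The 95% intervals of log2 differences take a t quantile with the residual degrees of freedom only. The test adds prior degrees of freedom, so these intervals are wider than its p-values imply. The same fit without the filter (12945 genes with a count) tested Il4, Il6 and Il9. The filtered fit was tried on simulated data for lung CD45 KO against control only, and the fit without a filter was not. Pooled ratios are over the 3 libraries of a group with exact 95% intervals for counting error only. A fold against 0 counts uses 3 counts over the group.

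The cytokine genes and the lists were chosen with earlier results of these data known. Named from each list were the genes that passed between CD45 KO and control, up to 6 by adjusted p, and the 3 genes most correlated with each tested cytokine (log2 CPM, prior count 2), of which the text gives all before and the first after subtraction of group means. Il4ra and the Il4 promoter were chosen after their values were seen.

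Tried as alternatives were size factors and Wald test of DESeq2 1.42.0, no filter, at least 10 counts in 3 libraries, only the libraries of the contrast, a replicate block, and each library left out in turn. The Wald test without independent filtering and all alternatives for Il4 other than the fit without a filter were chosen after seeing the data. Promoters are from RefSeq (GRCm38.p6) and positions and 3′ UTRs from GENCODE M21 (GRCm38). All 7 genes matched. The 3′ UTR of 1 of them is not reported here.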

Additional observations from a re-analysis of the deposited data

Results flagged for a closer look

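The difference of the CD45 effect on Il4 between tissues passed its own test in 2 contrasts, both in the fit without a filter on low counts. For lung minus mature marrow the adjusted p was 0.00225, with 20 counts in lung CD45 KO, 0 in lung control, 10 in mature CD45 KO and 16 in mature control. For lung minus immature marrow the adjusted p was 0.0157, with 6 counts in immature CD45 KO and 10 in immature control. Il4 was at least 7.84-fold higher in CD45 KO in lung and at ratios of 0.472 (0.191 to 1.11) and 0.517 (0.154 to 1.57) in mature and immature marrow. With 1 library left out, the adjusted p rose to 0.0617 against mature marrow. Against immature marrow the call stayed in 5 of 12 such fits (up to 0.153). Among the other settings the highest adjusted p were 0.116 and 0.177. Lung and marrow libraries also differ in sex, so that tissue and sex cannot be told apart as the condition under which the difference appears.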

How the results depend on the processing

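The number of cytokine genes called between lung CD45 KO and control was 2 and ranged from 0 (without CD45 KO replicate 2) to 2 when each lung library was left out, and it was 1 when control replicate 1 or 3 or CD45 KO replicate 3 was left out. It was 0 with the DESeq2 Wald test without independent filtering, chosen after seeing the data, and the planned Wald test gave no adjusted p for Il5, Il13 and Il2. Over all genes the count of 48 was 22 without a filter, 18 with that test and 29 to 42 with each lung library left out. For lung minus mature and lung minus immature marrow the count was 0, and 1 each without a filter, which was Il4, but the marrow counts of Il5, Il13 and Il2 allow no such test. The direction turned only for differences that did not pass, with each library left out: Il2 in lung lay between -0.45 and 0.052 (0.034 without control replicate 2, 0.052 without CD45 KO replicate 3), Csf2 in mature marrow between -0.48 and 0.074 (without control replicate 3), and Csf2 in mature against immature controls between -0.17 (without mature control replicate 3) and 0.64 (-0.11 without immature control replicate 1). Libraries with the same replicate number did not deviate together (correlations of -0.09 to 0.08, 0 pairs over 0.1). With 3 libraries a group and deviations mostly near counting error, this cannot decide whether the numbers pair them. With the replicate number as a block, 2 cytokine genes and 44 of all genes were called in lung, Il4 was at an adjusted p of 0.000142, and Maf did not pass (0.0509). Maf also missed the threshold with DESeq2 size factors (0.0524), no filter (0.320), at least 10 counts in 3 libraries (0.0595) and the Wald test without independent filtering (0.274). Without a filter, Icos (0.198), Nfkb1 (0.198), Nr4a1 (0.198) and Rora (0.242) missed it too, as did Nr4a1 with only the libraries of the contrast (0.0805). With the Wald test without independent filtering so did Icos (0.153), Nfkb1 (0.0979), Nr4a1 (0.184), Nfkbiz (0.0502), Rora (0.195) and Zfp36l2 (0.148), and with the planned Wald test Rora (0.157) and Zfp36l2 (0.116). Differences of the 4 cytokine genes between lung and marrow stayed past the threshold in the alternatives that tested them, but their sizes moved with single marrow counts. When only the libraries of a contrast were fitted, 0 cytokine genes passed the filter in the 4 contrasts within marrow, and no value was formed. At this depth Il9 could not be compared, nor Il5, Il13 and Il2 within marrow, and Il6 only as ratios with wide intervals in mature CD45 KO cells.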

Other observations

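Subunits of the receptors for Il6 and Il9 were outside the tests because of low counts and were chosen after their values were seen. Il6st, which encodes the signalling subunit gp130 of the IL-6 receptor, had 1 count over the 3 lung CD45 KO libraries and 0 over the lung controls, against 19 in mature CD45 KO, 16 in mature control, 16 in immature CD45 KO and 10 in immature control libraries. Il9r, which encodes the IL-9 receptor, had 8 counts in lung CD45 KO and 16 in lung control libraries.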
